A study of Mus musculus with 12 samples.

Results

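The miR-23, miR-27 and miR-24 clusters were examined as 5 probes, mmu-miR-23a, mmu-miR-23b, mmu-miR-24, mmu-miR-27a and mmu-miR-27b, chosen by name out of 599 on the panel. Of these 599 probes, 566 name mouse miRNAs, and all 5 members were among the 226 mouse probes with enough signal to be tested. They were measured in ileum from 12 male mice of the NOD/ShiLtJ strain, which is prone to autoimmune diabetes, at age P23. The 3 groups of 4 libraries are control mice, mice labelled 1PAT antibiotics, and mice labelled cecal material transfer, a group the protocol text calls restoration. The antibiotic agent, its dose, and whether the mice given cecal material had first received antibiotic are not given in the labels. Groups were assigned by dam with her litter, but the labels do not tie a library to a litter, so libraries of a group may share one and the p-values here describe the spread between libraries only. Levels were read on the NanoString nCounter mouse miRNA panel, which tags each mature miRNA and counts coloured reporters without amplification, and are normalised signal per probe.

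These miRNAs come from a pair of paralogous clusters, each of which encodes a miR-23, a miR-27 and a miR-24 on a single primary transcript that is cut into separate hairpins. The clusters are known from vascular endothelium, smooth muscle and lymphocytes. There they repress, among other targets, regulators of angiogenesis, lipid metabolism and T cell differentiation. Since neighbours are transcribed together, the ratio of neighbours within a library is a measure of how their mature levels differ in ways that shared transcription alone does not set.

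In the RefSeq annotation of build GRCm38.p6, the miR-23a cluster lies on the plus strand of chromosome 8. It holds Mir23a (chr8:84208518-84208592), Mir27a (chr8:84208672-84208758) and Mir24-2 (chr8:84208815-84208921) within 404 bases, and no protein-coding gene of that annotation overlaps it. The miR-23b cluster lies on the plus strand of chromosome 13, with Mir23b (chr13:63300484-63300557), Mir27b (chr13:63300712-63300784) and Mir24-1 (chr13:63301208-63301275) within 792 bases. All 3 of its hairpins lie inside Aopep, which encodes an aminopeptidase. Whether they are exonic or intronic was not examined here. The probe names carry no arm, and the sequences shown are those of the 3p arm, to which these names referred in older nomenclature. Mature sequences from RefSeq were matched for 4 of the 5 members, and miR-23b is given by name. They are shown 5′ to 3′ with the seed, bases 2 to 8, in capitals, because the seed sets which targets are shared and the rest sets how well a probe can tell paralogs apart.
miR-23a-3p: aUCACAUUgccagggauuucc
miR-27a-3p: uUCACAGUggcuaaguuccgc
miR-27b-3p: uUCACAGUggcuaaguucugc
miR-24-3p: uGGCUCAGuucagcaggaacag

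miR-27a and miR-27b share their seed and 20 of 21 positions, differing only by C19U, counted from 1 at the 5′ end of miR-27a. The seed of miR-23a has 6 of 7 bases in common with that of miR-27a, the difference being U7G, while miR-24 has a seed of its own. The mature miR-24 sequence is encoded by both clusters, so the miR-24 probe cannot say which cluster its signal came from. Different probes capture and count with different efficiency, so levels are compared between groups for 1 probe, or as ratios whose difference between groups is read, and not between probes.

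Depth and group moved together. Dividing each library's values by its own constant gave whole counts (100% of values within 0.01 of a whole count), which summed to 169844 to 274302 per control library, 120235 to 148297 per antibiotic library and 280114 to 393551 per cecal transfer library. These ranges did not overlap, so depth and group cannot be told apart in a comparison of groups. Marker miRNAs of other cell types also moved. The study's design text speaks of intestinal epithelial cells and the sample labels of ileum, and smooth muscle miRNAs were among the strongest signals. The summed signal of the 3 tested smooth muscle and fibroblast miRNAs and miR-214, which was below the filter, lay between 27005 and 34495 for control, 30761 and 33393 for antibiotic and 37738 and 45686.5 for cecal transfer. Both enterocyte miRNAs measured, miR-192 and miR-194, summed to between 12067 and 22540.5, 13864 and 16832, and 9524 and 12403 in the same order. The ileum's epithelial miR-200 family was present throughout, at a summed signal of at least 15142 in any library. In whole tissue, fewer cells of a type and less RNA per cell cannot be told apart.

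Cecal transfer libraries differed from control libraries in all 5 members, with both a-cluster probes, miR-24 and miR-27b higher and miR-23b lower. Against antibiotic libraries 4 of the 5 differed, 3 of them higher (miR-24 and both miR-27 probes) and miR-23b lower. No member passed between antibiotic and control libraries. Over all 226 tested miRNAs, 30.1% were called between cecal transfer and control (18.1% higher and 11.9% lower), 32.7% between cecal transfer and antibiotic (19.9% higher and 12.8% lower), and 0% between antibiotic and control. With median centring the split moved from 41 higher and 27 lower to 28 and 28 against control, and from 45 and 29 to 22 and 32 against antibiotic. With log2 depth as a covariate, limma called 23 miRNAs against control (20 higher and 3 lower) in place of 68, and 0 against antibiotic in place of 74 (35 with an unadjusted p under 0.05). Between antibiotic and control, where limma called 0, 34 miRNAs had an unadjusted p under 0.05, edgeR called 0 and DESeq2 called 3. The median size of the log2 change against control was 0.73 over the 5 members and 0.20 over all tested miRNAs, and against antibiotic 0.44 and 0.23. Both transfer comparisons use the same 4 transfer libraries, so they are not independent of each other.

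**Figure D1:**
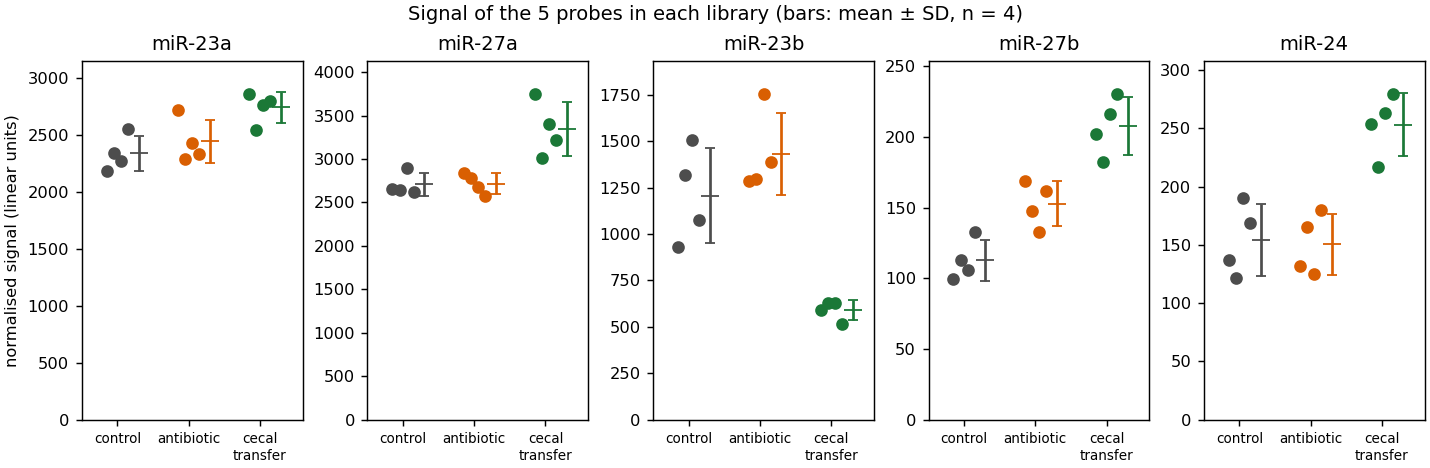
Normalised signal (linear units, axes from 0) of the 5 probes in every library, with group mean and SD to the right of the 4 points. For miR-23b the 4 cecal transfer libraries sit between 518 and 631, below every other library, whereas for miR-27b they sit between 182.1 and 231, above every other library.

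The a-cluster members had the smaller changes. miR-23a, a miRNA known from muscle and lymphocytes, read 2187, 2345, 2269 and 2551 in the controls, 2717, 2293, 2427 and 2335 with antibiotic and 2862, 2545, 2763 and 2799 with cecal transfer. The transfer libraries were on the high side, but the lowest of them lay below the highest of either other group. The rise against control was 1.17-fold (log2 0.23, SE 0.07, adjusted p = 0.0282 by limma). Against antibiotic the log2 difference was 0.17 (SE 0.07, adjusted p = 0.0931 by limma) and did not pass. The call against control was a narrow one, since leaving out any 1 of 6 libraries ended it. These were control replicate 1, 2 or 3 (adjusted p = 0.0836, 0.0546 and 0.0614) and cecal transfer replicate 1, 3 or 4 (adjusted p = 0.0758, 0.0668 and 0.0758). It was also lost with median centring (adjusted p = 0.290), log2 depth as a covariate (0.110), edgeR (0.0867) and DESeq2 (0.154).

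miR-27a, which in fat tissue restrains adipocyte formation, read 2655, 2648, 2900.2 and 2624 in the controls, 2835, 2785, 2677 and 2574 with antibiotic, and 3751, 3012, 3398 and 3220.5 with cecal transfer. Every transfer library exceeded every other library, while control and antibiotic overlapped throughout. Its level rose 1.23-fold against both control (log2 0.30, SE 0.07, adjusted p = 0.00582 by limma) and antibiotic (log2 0.30, SE 0.07, adjusted p = 0.00754). Quantile normalisation ended the call against control (adjusted p = 0.139), and median centring (0.0704) or log2 depth as a covariate (0.239) that against antibiotic.

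miR-24, a repressor of cell-cycle and apoptosis genes in several cell types, read 137, 121, 189.9 and 168 in the controls, 132.2, 166, 124.998 and 179 with antibiotic, and 254, 216.5, 263 and 279.6 with cecal transfer. All 4 transfer libraries lay above the other 8, which overlapped. It rose 1.66-fold against control (log2 0.73, SE 0.15, adjusted p = 0.00252 by limma) and 1.69-fold against antibiotic (log2 0.76, SE 0.15, adjusted p = 0.0024). With log2 depth as a covariate both calls were lost (log2 0.83, adjusted p = 0.0591, and log2 0.97, adjusted p = 0.323, by limma). Its recovered counts were low, 65 to 114 in antibiotic libraries, where counting error alone reached 12.4% of a value and the spread between libraries was 17.4% (CV).

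The signal of the probe for miR-27b, the chromosome 13 paralog, had its lowest mean in the controls and its highest after transfer, with antibiotic between. miR-27b differs from miR-27a at 1 position and held on average 4.01% (control) to 5.87% (cecal transfer) of their summed signal. Detection of miR-27a by the miR-27b probe was not tested. miR-27b read 99.7, 113, 106.1 and 132.9 in the controls, 169, 147.8, 132.7 and 162 with antibiotic, and 202, 182.1, 216.3 and 231 with cecal transfer. The transfer libraries were above all others, and the highest control library (132.9) lay just above the lowest antibiotic library (132.7). Against control it rose 1.84-fold after transfer (log2 0.88, SE 0.12, adjusted p = 0.000104 by limma), and it was 1.36-fold higher than in antibiotic libraries (log2 0.44, SE 0.12, adjusted p = 0.0108). Antibiotic against control had a log2 difference of 0.44 (SE 0.12, adjusted p = 0.0965), which did not pass. That difference had an unadjusted p of 0.00213 and passed only without control replicate 4 (log2 0.52, adjusted p = 0.0364). Median centring (adjusted p = 0.0673), quantile normalisation (0.126), DESeq2 (0.0519) and log2 depth as a covariate (0.526) each ended the call against antibiotic, while that against control held with depth in the model (log2 0.87, adjusted p = 0.0174 by limma). Library totals did not overlap between groups, so the depth fit extends a slope found within groups and does not separate depth from group. The spread between libraries (CV) was 12.7% in control and 10.49% in antibiotic, where the counting error of a single library reached 11.5% and 12.04%, and 9.96% in cecal transfer, where it reached 6.26%.

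miR-23b, which in autoimmune tissue is known to dampen inflammatory cytokine signalling, went the other way. It read 928, 1318, 1505 and 1074 in the controls, 1284, 1296, 1756 and 1390.3 with antibiotic, and 588, 628, 631 and 518 with cecal transfer. All 4 transfer libraries lay far below the other 8, with a gap from 631 to 928, and control and antibiotic overlapped. The level fell 2.01-fold against control (log2 −1.01, SE 0.14, adjusted p = 0.00017 by limma) and was 2.41-fold lower than in antibiotic libraries (log2 −1.27, SE 0.14, adjusted p = 4.22e-05). Among the 226 tested miRNAs, these falls ranked 5 and 3 from the steepest in their comparisons. The antibiotic libraries stood at 1431 ± 221.4 against 1206 ± 256 (SD, n = 4) in control (log2 0.26, adjusted p = 0.396).

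Libraries of the groups did not overlap for 4 of 5 members in either transfer comparison, 3 with transfer higher and 1 lower. Of all tested miRNAs, 29.6% had no overlap against control (16.8% higher and 12.8% lower) and 33.6% against antibiotic (19.9% higher and 13.7% lower). No member was without overlap between antibiotic and control, where the share over all tested was 8.41%. For every member the cecal transfer mean lay outside the interval between the control and antibiotic means. The share of all tested miRNAs for which this held was not counted, so it is not read as a trait of the members. As sums of both probes with a given seed, miR-23 signal was 3544 ± 293 for control, 3874 ± 267 for antibiotic and 3333 ± 120.2 for cecal transfer, and miR-27 signal was 2819 ± 124.6, 2871 ± 120.1 and 3553 ± 318 (SD, n = 4). The miR-23 sum in transfer libraries (3173 to 3451) lay within the control range (3115.5 to 3774), whereas that of miR-27 (3194 to 3953) lay above it (2755 to 3006). Set against the antibiotic ranges, the transfer sums lay below for miR-23 (3589 to 4183) and above for miR-27 (2737 to 3004). These sums give each probe the weight of its own efficiency.

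The recovered counts of miR-23b did not follow depth. They were 938 to 1240 for control, 738 to 913 for antibiotic and 742 to 931 for cecal transfer, so that before scaling the last 2 groups overlapped almost entirely. Over the 12 libraries the highest count of miR-23b was 1.68 times the lowest, while library totals spanned 3.27-fold and the median tested miRNA 3.71-fold. No other tested miRNA had so narrow a range of counts. The slope of log2 count on log2 total was 0.03 for miR-23b, compared with 1.104 for miR-23a, 1.18 for miR-27a, 1.31 for miR-27b and 1.51 for miR-24, and with a median of 1.02 over the 226 tested miRNAs (quartiles 0.87 and 1.22). Only 3 of the 226, miR-23b included, had a slope as low (1.33%). The transfer libraries were the deepest, so a lower normalised signal there lowers this slope by arithmetic. The slope over the 12 libraries is therefore no observation separate from the differences between groups. Within groups, after each group's mean was removed, it was 0.23 for miR-23b, 0.79 to 1.03 for the other members and 0.90 for the median tested miRNA. The 33 herpesvirus probes on the panel, which name no mouse miRNA, had a median slope of 0.73. Their slopes ran from −0.68 to 1.56, a range that includes the slope of miR-23b. The counts of these probes are not given here, so they are not matched to miR-23b in count, and counting noise may widen their range. With log2 depth in the model, miR-23b had a log2 difference of −0.53 (SE 0.17, adjusted p = 0.0636 by limma) against control and −0.29 (SE 0.29, adjusted p = 0.605) against antibiotic. With all libraries thinned to the shallowest, miR-23b had −0.92 and −1.18. Thinning keeps each probe's expected share of its library, so it cannot separate depth from group. These slopes are descriptions chosen after the recovered counts were seen, and the part of depth in the fall of miR-23b was not tested.

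**Figure D2:**
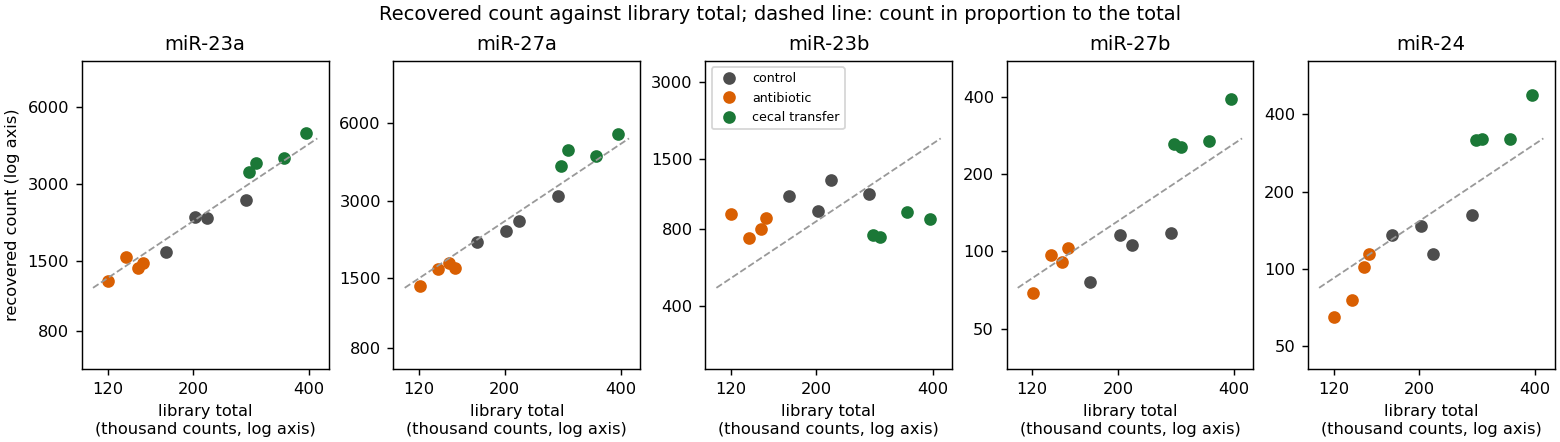
Recovered count of each probe against the library's total count (both axes logarithmic), 1 point per library, with a dashed line for a count in proportion to the total. The other 4 probes rise with the total, while the points of miR-23b stay between 738 and 1240 counts from the shallowest to the deepest library.

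Within-library ratios, which do not depend on a library's scaling factor, were compared for 8 pairs of members in 3 comparisons, 24 tests in all. The smallest p that 4 libraries against 4 allow is 0.0286 in an exact two-sided permutation test, and with 11 of the 24 at that value the adjusted p over the 24 tests was 0.0623 for each, so no ratio passed the threshold. The ratio was therefore also fitted by limma for every other tested miRNA over the same reference probe, an alternative chosen after seeing the data, with p adjusted over those miRNAs. A change of the reference probe itself shifts all of its ratios, so a pass need not be particular to the pair. The share of those miRNAs that passed is not given here.

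The paralog ratio of miR-23a over miR-23b was 2.36, 1.78, 1.51 and 2.37 in the controls, 2.12, 1.77, 1.38 and 1.68 with antibiotic, and 4.86, 4.05, 4.38 and 5.39 with cecal transfer. Each transfer library stood above all other libraries, with nothing between 2.37 and 4.05. The mean log2 ratio differed by 1.24 (SE 0.18) from control and by 1.44 (SE 0.16) from antibiotic (exact p = 0.0286 for both, adjusted 0.0623), and by limma over the reference probe both passed (adjusted p = 1.99e-06 and 1.21e-07). With log2 depth in that fit the difference was 0.84 against control (adjusted p = 0.0158) and 0.62 against antibiotic (adjusted p = 0.445). The reference probe, miR-23b, was itself called lower in both comparisons without depth in the model, so a pass here need not be particular to the pair.

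The other paralog ratio moved in the opposite direction and by less. miR-27a over miR-27b was 26.4, 23.3, 27.1 and 19.6 in the controls, 16.7, 18.7, 20.03 and 15.8 with antibiotic, and 18.5, 16.5, 15.6 and 13.9 with cecal transfer. Transfer libraries were all below control, antibiotic libraries overlapped with both, and only the lowest control library fell within the antibiotic range. The mean log2 difference was −0.58 (SE 0.14) for transfer against control (exact p = 0.0286, adjusted 0.0623, and 0.000912 by limma over the reference probe). With log2 depth in that fit it was −0.43 and did not pass (adjusted p = 0.106). For antibiotic against control it was −0.43 (SE 0.13, exact p = 0.0571, adjusted 0.105, and 0.0208 by limma over the reference probe, or 0.110 with log2 depth in it). For transfer against antibiotic it was −0.15 (SE 0.12, exact p = 0.2, adjusted 0.3). The reference probe, miR-27b, was itself called higher in transfer than in control libraries, so the pass against control need not be particular to the pair either.

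Among neighbours, the a-cluster ratio moved little and the b-cluster ratio separated the transfer libraries. miR-23a over miR-27a ranged from 0.763 to 0.972 over all 12 libraries, and its mean log2 ratio differed by −0.07 (SE 0.08) for transfer against control and −0.13 (SE 0.06) against antibiotic (exact p = 0.429 and 0.0857, adjusted 0.514 and 0.137). miR-23b over miR-27b was 9.22, 11.6, 14.1 and 8.03 in the controls, 7.57, 8.72, 13.1 and 8.53 with antibiotic, and 2.90, 3.43, 2.91 and 2.24 with cecal transfer. No value outside the transfer group was below 7.57, and none within it was above 3.43. The log2 difference was −1.89 (SE 0.22) against control and −1.71 (SE 0.22) against antibiotic (exact p = 0.0286 for both, adjusted 0.0623). The limma fit over the reference probe gave adjusted p = 3.36e-06 and 1.91e-05, and with log2 depth in it −1.40 (adjusted p = 0.00429) and −0.71 (adjusted p = 0.632). Here too the reference probe, miR-27b, was itself called higher in both comparisons without depth in the model.

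miR-24 can come from either cluster, and its ratio to members of both was followed. Relative to miR-24, miR-23a was lower in transfer libraries by 0.50 (SE 0.15) against control and 0.59 (SE 0.17) against antibiotic on the log2 scale, and all transfer libraries (9.98 to 11.7 on the linear scale) lay below the others (11.9 to 20.4). miR-27a over miR-24 had log2 differences of −0.43 (SE 0.15) for transfer against control, where the groups did not overlap, and −0.46 (SE 0.16) against antibiotic, where they did. miR-27b over miR-24 was the steadiest ratio within a group, between 0.798 and 0.842 in the 4 transfer libraries, and ranged from 0.561 to 0.930 in control and from 0.893 to 1.27 in antibiotic libraries. Counting error in transfer libraries reached 6.26% for miR-27b and 5.62% for miR-24. The range there was narrower than counting error alone would give, so the steadiness is not read as a trait of the pair. The mean log2 of this ratio differed by 0.15 (SE 0.15) between transfer and control, and by −0.31 (SE 0.12) between transfer and antibiotic (exact p = 0.4 and 0.0286, adjusted 0.505 and 0.0623). miR-23b over miR-24 had log2 differences of −1.74 and −2.02 for transfer against control and antibiotic, the latter the widest of the 24.

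**Figure D3:**
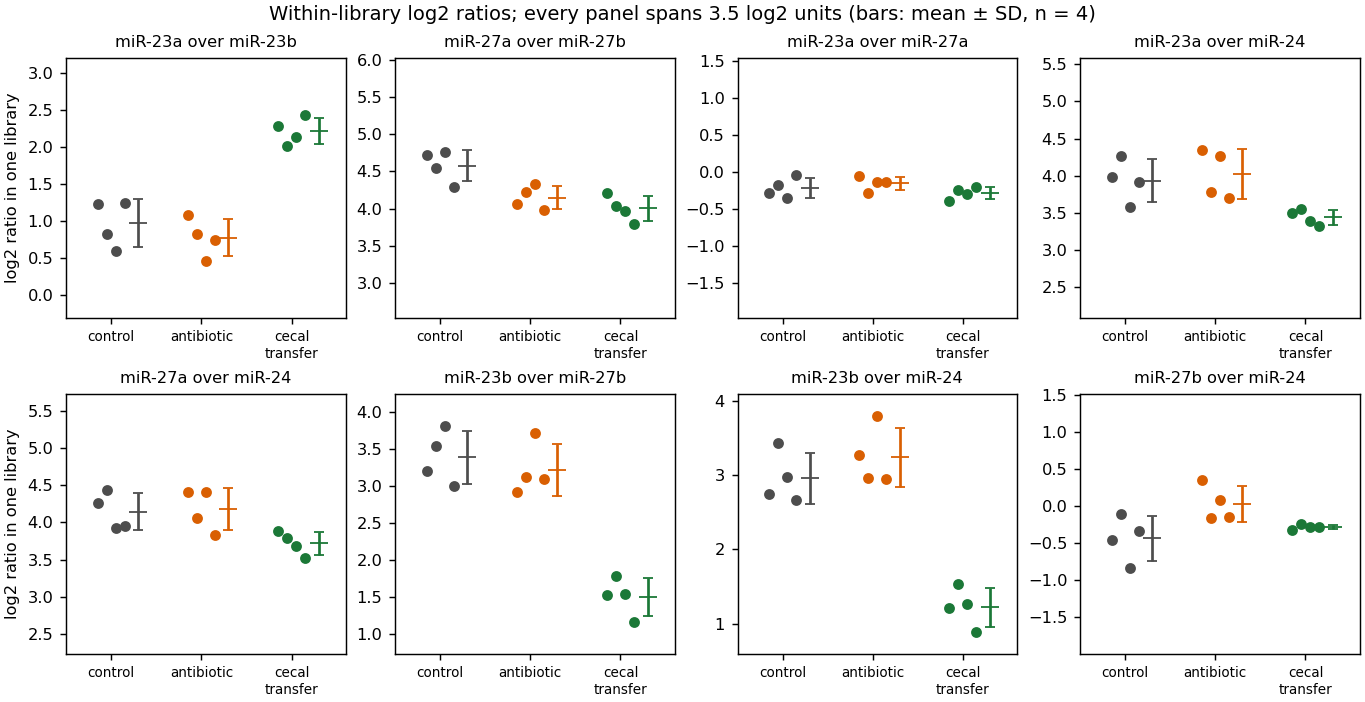
Log2 ratio of 2 members within each library for the 8 pairs, with group mean and SD beside the 4 points of a group, and panels of equal span. The ratios with miR-23b separate the cecal transfer libraries from the rest by more than 1 log2 unit on average, while miR-23a over miR-27a stays between −0.39 and −0.04 in all libraries.

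The shifts were set beside those of other related miRNAs on the panel, as a description. Among 29 tested pairs of near-identical or same-seed paralogs, the median absolute shift of the log2 ratio for transfer against control was 0.22. The widest 3 were miR-10a over miR-10b (1.98), miR-301a over miR-301b (−1.34) and miR-196a over miR-196b (1.24). miR-23a over miR-23b ranked 4 and miR-27a over miR-27b ranked 7. Against antibiotic, miR-23a over miR-23b was the widest of the 29, followed by miR-10a over miR-10b (1.25) and miR-301a over miR-301b (−1.04), with a median of 0.23. Between antibiotic and control the widest were miR-196a over miR-196b (1.89), miR-10a over miR-10b (0.72) and miR-99a over miR-100 (−0.66), and miR-27a over miR-27b ranked 6. The ranks take no account of spread. In control libraries the log2 ratio of miR-196a over miR-196b had an SD of 1.36, against 0.32 for miR-23a over miR-23b, so its shifts against control are imprecise.

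Among 26 listed and tested pairs of cluster neighbours, miR-23b over miR-27b had the widest shift in both transfer comparisons. The list left out miR-23a over miR-24 and miR-23b over miR-24, which are neighbours too. Against antibiotic, miR-23b over miR-24 shifted more widely (−2.02) than miR-23b over miR-27b (−1.71). Against control the next of the 26 were miR-29b over miR-29c (−0.67) and miR-100 over let-7a (0.61), with a median absolute shift of 0.21. Against antibiotic they were miR-195 over miR-497 (0.74) and miR-1 over miR-133a (0.70), with a median of 0.23. In antibiotic against control the widest were miR-1 over miR-133a (−0.89), miR-195 over miR-497 (−0.61) and miR-362-3p over miR-532-5p (−0.59), and miR-27b over miR-24 (0.46) ranked 5.

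**Figure D4:**
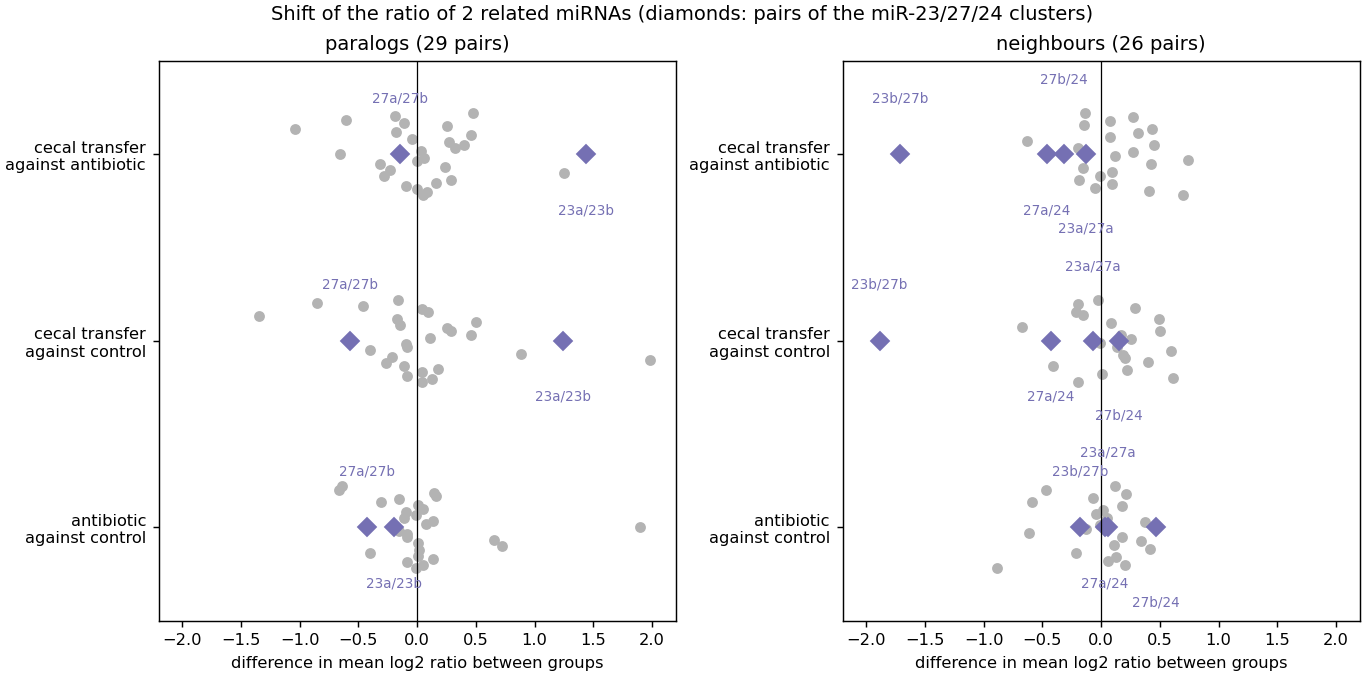
Difference between groups in the mean log2 ratio of 2 related miRNAs, for 29 paralog pairs (left) and 26 neighbour pairs (right) in the 3 comparisons; grey points are other miRNAs, spread vertically only to separate them, and diamonds the pairs of these clusters. In the transfer comparisons miR-23b over miR-27b lies at −1.89 and −1.71, beyond the other neighbour pairs drawn, which leave out miR-23b over miR-24.

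Likeness of pattern was measured as the root mean square difference of log2 signal over the 12 libraries after each miRNA was centred on its own mean. A flat miRNA would score the member's own spread, which was 0.127 for miR-23a and 0.163 for miR-27a. That spread was 0.384 for miR-27b, 0.406 for miR-24 and 0.581 for miR-23b, so scores are not comparable between members. The median score over tested miRNAs was 0.262 for miR-23a and 0.279 for miR-27a. By this measure miR-23a was nearest to miR-143 of smooth muscle (0.0789), miR-29a (0.0871) and the fibroblast miRNA miR-199a-3p (0.0892), and miR-27a to miR-199a-3p (0.0920), miR-26b (0.0927) and miR-143 (0.115). miR-27b was nearest to miR-125b-5p (0.110), miR-125a-5p (0.132) and the smooth muscle miRNA miR-145 (0.169). miR-125b-5p was stepped in the same order, at 2316 ± 253 for control, 2928 ± 210.1 for antibiotic and 4472 ± 413 for cecal transfer (SD, n = 4). miR-24 was nearest to miR-369-3p (0.202), the leukocyte miRNA miR-155 (0.204) and miR-532-5p (0.204). miR-23b was nearest to miR-2140 (0.184), miR-3471 (0.198) and miR-490 (0.317), whose group means were at most 127.4 units of signal. Those 3 ranked 4, 5 and 2 from the lowest of the 226 in the slope of count on depth, at 0.10, 0.24 and −0.29. A count is the signal over a constant of the library, so miRNAs alike in centred signal are alike in this slope too. These ranks are therefore no separate observation. Between members, miR-23a and miR-27a were 0.105 apart, miR-24 and miR-27b 0.274, and miR-23b at least 0.673 from any other member.

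Markers of other cell types moved beside these members. The 3 tested smooth muscle and fibroblast miRNAs, miR-143 (log2 0.18), miR-145 (0.59) and miR-199a-3p (0.29), were all higher in transfer than in control libraries, and 3 of 7 leukocyte miRNAs and 2 of 3 erythroid miRNAs were higher as well. Both enterocyte miRNAs tested and 3 of 5 miRNAs of the miR-200 family were lower. Of the endothelial pair, miR-126-5p was lower (−0.41) and the more strongly detected miR-126-3p had −0.05 (adjusted p = 0.697), with sums of 5653 to 6640 for control, 5150 to 6435 for antibiotic and 5626 to 5907 for cecal transfer. Leukocyte sums were 2917 to 4240, 3511 to 3685 and 4047 to 4702 in the same order, and erythroid sums 1128 to 1381, 1208 to 1492 and 1466 to 1981. Of the other lists, 1 of 3 striated muscle miRNAs and the liver miRNA miR-122 were higher against control. None of the 3 tested on the neural list and 2 on the pancreas list was called. The pancreas list includes miR-375, which was strongly detected in this ileum (mean signal 2680 in control). Against antibiotic, the calls were 3 smooth muscle and fibroblast, 4 leukocyte, 3 erythroid, 1 striated muscle and 1 liver miRNA higher, and 1 enterocyte, 3 epithelial, 1 endothelial and 1 neural miRNA lower. None of these markers was called between antibiotic and control libraries. The part of cell type composition in the changes of the clusters was not tested.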

How the data were processed

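The authors deposited 1 table of normalised signal for 599 probes in 12 libraries. Per the labels' protocols, total RNA was run on the nCounter mouse miRNA panel of version 1.5. The normalisation software and any background treatment were not given in the sources used here. Sums over the 100 probes of highest mean signal lay between 219892 and 220585 in all libraries, so signal is relative to these probes. Whole counts were recovered by taking each library's lowest value as 1 count (0.590 to 1.92 units of signal).

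Tests used log2 of signal with a pseudocount of 1. Mouse probes above a signal of 32 in 4 or more libraries entered a limma model (limma 3.58.1, R 4.3.3) of all 12 libraries with a variance trend, and p-values were adjusted by Benjamini-Hochberg over 226 probes with a threshold of 0.05. Fold changes are on this scale, which understates those of weak probes. Within-library ratios were tested by exact permutation, two-sided (scipy 1.17.1), adjusted over 24 tests. Alternatives, reported in the closing section, included count models of the recovered counts (DESeq2 1.42.0, edgeR 4.0.16). The scripts were tested on simulated data.

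The members, the lists of pairs and markers and the tests were chosen with earlier results of these data known. Named miRNAs were the members, the 3 nearest to each in pattern, the 3 widest pairs per comparison and kind, and the markers. Pairs were used where both probes were tested (29 of 34 paralog and 26 of 31 neighbour pairs). miR-215 was not used here. Counting errors cover counting only, and the depth of each library limits the weak probes.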

Additional observations from a re-analysis of the deposited data

Results flagged for a closer look

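Of 39 sets of 4 libraries (5 probes and 8 ratios in 3 groups), 1 held a library apart from the rest. The signal of miR-27a in control replicate 3 was 2900.2, while the other 3 control libraries lay between 2624 and 2655, a gap of 0.888 of the group's range. Chance sets 1 in 20 such groups apart, so 1 of 39 is not unusual. Without that library miR-27a kept its call in both transfer comparisons.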

How the results depend on the processing

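No paired analysis was possible because replicate numbers follow accession order only and no dam or litter is given. Counting error was largest for miR-24 and miR-27b among the 5 members, reaching 12.4% and 12.04% of a value, and depth cannot be told apart from group. The cause of each change below was not tested.

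The number of miRNAs called between antibiotic and control was 2 with quantile normalisation, 1 without a variance trend and 3 with DESeq2, and 0 to 8 with a library left out (8 without control replicate 4, 3 without control replicate 1, 1 without antibiotic replicate 1). Leaving out a library gave 47 to 67 calls for transfer against control and 55 to 82 against antibiotic. Log2 depth as a covariate left 23 (20 higher, 3 lower) and 0 calls in these comparisons, and no filter gave 161 for transfer against antibiotic. The 0 of the depth fit is by limma; DESeq2 and edgeR without depth called 54 and 73.

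For antibiotic against control, uncalled log2 differences changed sign. miR-23a had −0.025 with quantile normalisation and −0.023 with depth, and miR-27a −0.17 with quantile normalisation, −0.14 with depth, −0.013 with edgeR, −0.0089 with DESeq2 and −0.014 to 0.040 with a library left out. miR-24 had 0.074 after thinning and −0.14 to 0.080 with a library left out, and miR-23b −0.25 with depth. miR-27b had 0.38 to 0.52 with a library left out.

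For transfer against control, miR-23a lost its call with median centring (0.16), quantile normalisation (0.16), no filter (0.23), no variance trend (0.23), depth (0.31), edgeR (0.18) and DESeq2 (0.18), and had 0.20 to 0.27 with a library left out. Calls were also lost for miR-27a with quantile normalisation (0.20) and, with depth, for miR-24 (0.83, adjusted p = 0.0591 by limma) and miR-23b (−0.53). miR-27b kept its call under all 12 alternatives and all 12 fits with a library left out. For transfer against antibiotic, median centring ended the calls of miR-27a (0.21) and miR-27b (0.36), quantile normalisation (0.28) and DESeq2 (0.41) that of miR-27b, and depth those of miR-27a (0.58), miR-24 (0.97), miR-23b (−0.29) and miR-27b (0.43). miR-23a had 0.14 to 0.22 with a library left out and passed without antibiotic replicate 1 (adjusted p = 0.0326 by limma).

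Ratios that did not pass by the exact test passed by limma over the reference probe, whose own change shifts all of its ratios. For transfer against control these were miR-23a over miR-23b (1.24), miR-27a over miR-27b (−0.58), miR-23a over miR-24 (−0.50), miR-27a over miR-24 (−0.43), miR-23b over miR-27b (−1.89) and miR-23b over miR-24 (−1.74). Against antibiotic they were miR-23a over miR-23b (1.44), miR-23a over miR-24 (−0.59), miR-27a over miR-24 (−0.46), miR-23b over miR-27b (−1.71) and miR-23b over miR-24 (−2.02), and for antibiotic against control miR-27a over miR-27b (−0.43). With depth in that fit, 3 passed for transfer against control: miR-23a over miR-23b (0.84), miR-23b over miR-27b (−1.40) and miR-23b over miR-24 (−1.36). The sign changed for miR-27a over miR-27b against antibiotic (0.15), and for antibiotic against control in miR-23a over miR-23b (0.22), miR-23b over miR-24 (−0.11) and miR-27a over miR-24 (−0.0030 with depth, −0.060 after thinning, −0.044 to 0.15 with a library left out). miR-23a over miR-24 had −0.031 to 0.20 there with a library left out.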

Other observations

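The probes whose counts followed depth as little as miR-23b were miR-1968 (slope −0.32, 29 to 73 counts) and miR-490 (slope −0.29, 16 to 31 counts), both singled out after their values were seen. Their log2 differences in normalised signal for cecal transfer against antibiotic were −1.89 and −1.62 (adjusted p = 5.66e-06 and 0.000348 by limma). Transfer libraries were the deepest, so a low slope and a lower normalised signal there go together by arithmetic. Their mean signals over all libraries were 61.4 and 27.6, against 1076 for miR-23b, whose counts never fell below 738. Within groups, after each group's mean was removed, the slopes were 1.18 for miR-1968, 0.14 for miR-490 and 0.23 for miR-23b.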
